A study of Mus musculus with 8 samples.

Results

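Cxcr3, Cxcr6, Ccr2, Ccr4 and Cx3cr1 are receptors for inflammatory chemokines, and they were taken by symbol from the 32285 genes of the gene expression libraries, so the set held 5 genes, all of which were found. Their mRNA was measured in bone marrow T cells of the Runx1::Runx1t1 group and the control group of C57BL/6 mice, by droplet single-cell sequencing of transcript 5′ ends with T cell receptor (TCR) sequencing of the same cells. The Runx1::Runx1t1 group carried Runx1Runx1t1/+ with Mx1-Cre, a Cre recombinase that interferon switches on in many cell types. According to the study's methods the control group carried Runx1Runx1t1/+ without Mx1-Cre, whereas the sample labels call its genotype wild type. Both groups, sex-matched littermates, were injected 4 times with 5 mg/kg of Poly(I:C), which mimics viral RNA and induces interferon, and marrow was taken 4 weeks later. Each group had 2 pools of 2 mice, called replicate 1 and replicate 2, and the pool was the unit of every comparison. After negative enrichment, live CD3+ cells without the mCherry reporter that marks the fusion gene were sorted in both groups, so these are the T cells of a marrow in which other cells carried the fusion. The ages of the mice are not given in the sources used here.

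Chemokine receptors are G protein-coupled receptors of the cell surface that steer migration toward tissues producing their ligands. Naive T cells are known for Ccr7, the receptor that leads them to lymph nodes, and cells that have met antigen gain receptors of the inflammatory kind. Cxcr3 binds Cxcl9 and Cxcl10, which interferon induces, and is typical of type 1 and memory T cells. Cxcr6 binds Cxcl16 and is found on tissue-resident, chronically stimulated and natural killer T (NKT) cells. Ccr2 binds Ccl2 and related ligands and is best known for releasing monocytes from the marrow. Cx3cr1 binds the membrane-bound chemokine Cx3cl1 and marks cytotoxic effector T cells and monocytes. Ccr4 binds Ccl17 and Ccl22 and is typical of regulatory and type 2 T cells.

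In the GRCm38 build (GENCODE M21) 4 of the 5 protein-coding genes lay on chromosome 9: Ccr4 at 9:114490316-114504916 (minus strand), Cx3cr1 at 9:119901616-120069879 (minus), Cxcr6 at 9:123806475-123811760 (plus) and Ccr2 at 9:124101950-124113557 (plus). Cxcr3 lay at X:101731535-101734269 (minus). Cxcr6 lay inside the span of Fyco1 on the other strand, and the annotated span of Cx3cr1 crossed several other genes, some of them on the same strand, so the assignment of reads in the shared stretches is uncertain and was not tested.

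Because the fusion involves Runx1, a factor known to bind the hexamer TGTGGT, that hexamer and its reverse complement ACCACA were looked for in the 250 bases before each RefSeq transcript start (build GRCm38.p6). Of the 5 genes, 3 held it, against 14% of 32851 promoters. The windows around the matches are shown because they are the positions where these letters occur, with the hexamer in capitals and each read 5′ to 3′ on the gene's own strand. The Cxcr3 window was chrX:101734240-101734269 (minus strand), with the hexamer 110 bases before the start. The Cxcr6 window was chr9:123806455-123806476 (plus strand), 10 bases before the start. The Cx3cr1 window was chr9:120068333-120068362 (minus strand), 54 bases before the start.
Cxcr3: tgtattcacctgACCACAggcgtggcagaa
Cxcr6: acggaaacacagACCACAtcac
Cx3cr1: taaagatagggtACCACAcaggaaaccaga
The Cxcr3 and Cx3cr1 windows lie before the RefSeq start but inside the GENCODE spans given above, so they are not upstream of every annotated transcript. A match is a description of letters and not a measured binding site. The heptamer TCACACC of T-box factors (or its reverse complement) was in none of the 5 promoters and in 3.33% of all, and the GATA hexamer AGATAA was in that of Ccr2 and in 9.99% of all.

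Between 90958101 and 102883449 UMIs, each standing for 1 captured RNA molecule, were counted per pool, and 53033 barcodes were kept as cells. A barcode with a UMI of Cd3d, Cd3e or Cd3g was called a T cell (49967 barcodes), and T cells were divided by their UMIs into Cd8+ T cells (26856), Cd4+ T cells without Foxp3 (5774), Foxp3+ Cd4+ T cells (1496), which are the regulatory T cells by their defining factor, and T cells in which no co-receptor was detected (14091). A further 1750 had UMIs of both co-receptors and belonged to no class. The median depth of a pool was 4926 to 5879 UMIs in co-receptor-negative, 4608.5 to 5574.5 in Cd4+ and 6793 to 7599 in Cd8+ T cells, and the part of depth in the absence of a co-receptor UMI was not tested. Replicate 2 of the Runx1::Runx1t1 group stood apart, since 1 clonotype took 1106 of its cells, whereas the largest clonotypes of the other pools had 136, 35 and 40 cells. Any pair of pools shared 256 to 306 barcodes, at most 2.10% of the smaller pool. Runx1t1 itself gave 55 and 75 UMIs in T cells of the Runx1::Runx1t1 pools and 13 and 25 in those of the control pools, without overlap. Barcodes without a Cd3 UMI held 45 and 34 UMIs of it against 2 and 12. The sort removed mCherry+ cells, and the part of free RNA or of T cells with the fusion in these counts was not tested.

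The set accounted for 40791 UMIs of Cxcr3, 33248 of Cxcr6, 16101 of Ccr2, 2449 of Cx3cr1 and 1225 of Ccr4 in T cells. Levels are given as UMIs of the gene per 1000000 UMIs of all genes in the cells summed (CPM). They are not scaled by transcript length, and no level is compared between different genes. In the sentences that follow, 4 values are the Runx1::Runx1t1 pools, replicate 1 and replicate 2, and then the control pools, replicate 1 and replicate 2. A lower sum over a class can mean fewer cells with the mRNA or less mRNA per cell.

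The receptors differed in the class of T cell that held most of them. Cxcr3 averaged 90.54 ± 12.96 CPM (SD, n = 4 pools) in Cd8+, 140.2 ± 5.93 in co-receptor-negative, 194.7 ± 29.3 in Foxp3+ and 195.2 ± 9.64 in Cd4+ T cells. The pools read 87.8, 96.1, 74.0 and 104.3 CPM in Cd8+ and 185.5, 188.5, 204.5 and 202.5 CPM in Cd4+ T cells, so the classes did not overlap. The last 2 classes in that order, Foxp3+ and Cd4+, lay within each other's spread.

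Cxcr6 was lowest in Foxp3+ T cells, at 17.3, 22.8, 17.1 and 29.1 CPM, below every pool of the Cd4+ class, which read 117.1, 116.3, 96.7 and 128.4 CPM. Cd8+ T cells held 53.1, 211.2, 28.1 and 48.5 CPM, and co-receptor-negative T cells 110.6, 178.9, 84.2 and 105.1 CPM. In both classes replicate 2 of the Runx1::Runx1t1 group was the highest pool, and the Cd8+, co-receptor-negative and Cd4+ classes overlapped.

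Ccr2 ran in the other direction among Cd4+ T cells, with 114.5, 89.8, 93.3 and 139.1 CPM in Foxp3+ T cells and 64.6, 52.2, 43.5 and 61.5 CPM in those without Foxp3, again without overlap. Co-receptor-negative T cells held 88.8, 85.2, 61.8 and 63.9 CPM and Cd8+ T cells the least, 46.7, 35.0, 20.6 and 23.3 CPM.

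Ccr4 was rare in Cd8+ T cells, where 40, 31, 4 and 34 UMIs were found in all, 0.72, 0.53, 0.092 and 0.685 CPM. It reached 10.7, 11.6, 7.87 and 16.1 CPM in Cd4+ T cells and 28.8, 23.5, 40.2 and 37.2 CPM in Foxp3+ T cells. The order Cd8+, co-receptor-negative (4.68 ± 2.05, SD, n = 4 pools), Cd4+ and Foxp3+ held in every pool.

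Cx3cr1 was scarce in Foxp3+ T cells, where 3, 3, 6 and 0 UMIs were found. A count of 0 in the last of these pools allows up to 2.43 CPM, by a limit of 3 counts that covers counting error alone. Cd8+ T cells held 12.7, 8.06, 6.96 and 5.502 CPM, Cd4+ T cells 9.54, 6.52, 4.35 and 5.22 CPM, and co-receptor-negative T cells 5.51, 1.67, 3.73 and 5.62 CPM.

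**Figure D1:**
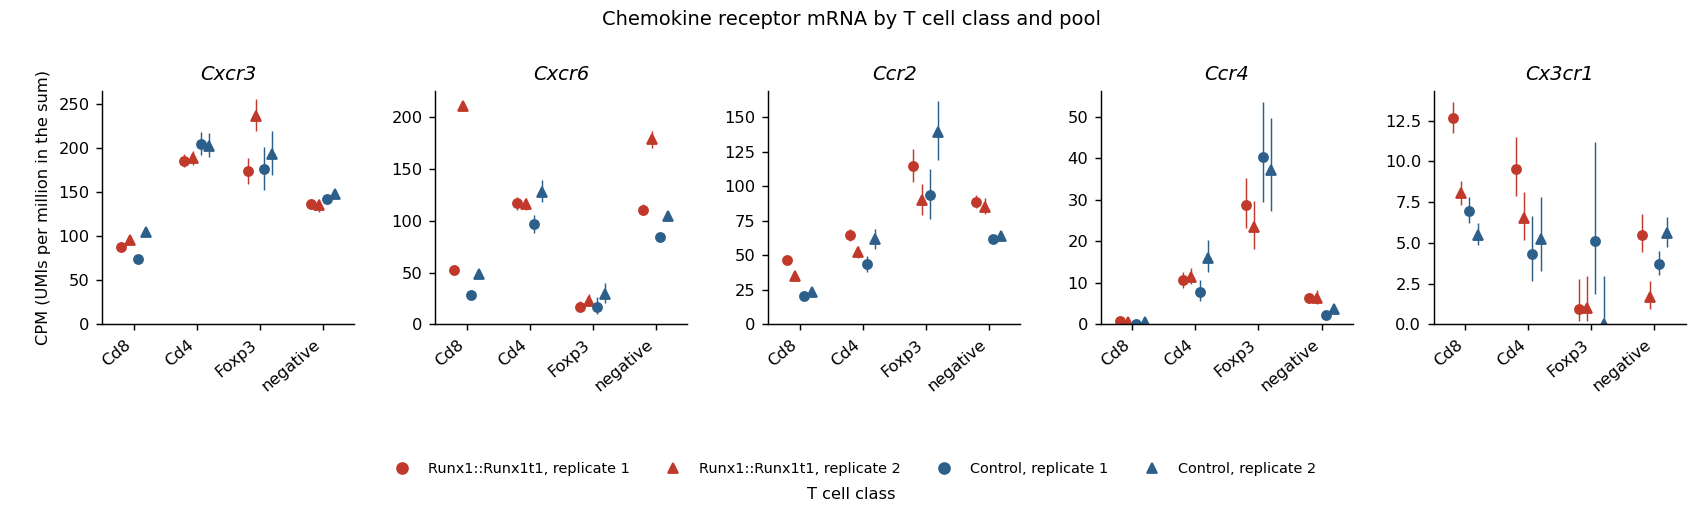
Level of each receptor (CPM, UMIs of the gene per 1000000 UMIs in the sum) in the classes of T cells, 1 point per pool, with 95% exact Poisson intervals that cover counting error alone. Ccr4 is highest in Foxp3+ and lowest in Cd8+ T cells, Cxcr6 is lowest in Foxp3+ T cells, and the Cxcr6 level of Cd8+ T cells is highest in replicate 2 of the Runx1::Runx1t1 group.

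These differences between classes were tested with edgeR's quasi-likelihood test on the sums of each class in each pool, with the pool as a block and Benjamini-Hochberg adjustment over all genes. Against Cd4+ T cells, Cd8+ T cells were lower in 3 of the 5 receptors, in a comparison where 35.7% of 12543 genes passed. Cxcr3 fell by 0.85 on the log2 scale (SE 0.09, adjusted p = 5.34e-06), Ccr2 by 0.59 (SE 0.15, adjusted p = 0.00645) and Ccr4 by 4.23 (SE 0.36, adjusted p = 8.72e-07). The log2 difference was -0.52 for Cxcr6 (SE 0.29, adjusted p = 0.193) and 0.57 for Cx3cr1 (SE 0.31, adjusted p = 0.172). With replicate 2 of the Runx1::Runx1t1 group left out, or with 1 cell per clonotype, the Cxcr6 difference was -1.12 and -1.28 and passed (adjusted p = 7.28e-06 and 1.67e-05).

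Foxp3+ T cells differed from other Cd4+ T cells in 4 of the 5 receptors, where 23.0% of genes passed. Ccr4 was 1.41 higher on the log2 scale (SE 0.33, adjusted p = 0.00676) and Ccr2 0.88 higher (SE 0.17, adjusted p = 0.00172). Cxcr6 fell by 2.70 (SE 0.44, adjusted p = 0.000467) and Cx3cr1 by 2.32 (SE 0.62, adjusted p = 0.0151), the latter on 12 UMIs and not without replicate 1 of the Runx1::Runx1t1 group (adjusted p = 0.185). Cxcr3 differed by -0.06 (SE 0.10, adjusted p = 0.711).

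Co-receptor-negative T cells differed from Cd8+ T cells in 4 of the 5, in a comparison where 29.0% of genes passed. Ccr4 (2.95, SE 0.36, adjusted p = 3.54e-05), Ccr2 (1.10, SE 0.14, adjusted p = 5.53e-05) and Cxcr3 (0.45, SE 0.09, adjusted p = 0.0016) were higher. Cx3cr1 fell by 1.11 (SE 0.29, adjusted p = 0.0107), a call lost without replicate 1 of the Runx1::Runx1t1 group (adjusted p = 0.107). The log2 difference of Cxcr6 was 0.59 (SE 0.28, adjusted p = 0.141), and it was 1.04 and passed without replicate 2 of the Runx1::Runx1t1 group (adjusted p = 1.73e-05).

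The co-receptor-negative T cells were further divided by what else they held. Invariant NKT cells, taken as those whose TCR alpha contig joined TRAV11 to TRAJ18 (1169 cells in the 4 pools), had 235.6, 278.2, 306.7 and 311.3 CPM of Cxcr3 and 311.9, 555.0, 453.2 and 479.4 CPM of Cxcr6. Their Ccr2 level was 152.1, 131.8, 146.6 and 185.1 CPM. T cells with a UMI of Trdc, the constant region of the gamma-delta TCR, and with neither a TRA nor a TRB contig were taken as Trdc cells. The Trdc cells had 102.5, 87.8, 118.0 and 132.5 CPM of Cxcr3, 126.5, 215.4, 68.5 and 123.5 CPM of Cxcr6, and 104.9, 130.5, 57.0 and 71.8 CPM of Ccr2. In every pool the NKT cells exceeded the Trdc cells in Cxcr3 and Cxcr6. Their Ccr2 level was also the higher one, but in replicate 2 of the Runx1::Runx1t1 group the values, 131.8 and 130.5 CPM, lay within each other's counting error. Cx3cr1 was 0.512 to 2.71 CPM in the NKT cells.

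The share of cells with a UMI was compared after each cell had been thinned to 2000 UMIs, cells below that depth being left out. In Cd8+ T cells this share was 13.5%, 15.3%, 11.9% and 16.9% for Cxcr3 and 8.71%, 28.0%, 5.18% and 7.84% for Cxcr6. Unthinned, the shares were 37.6%, 39.9%, 30.2% and 40.3% for Cxcr3 and 20.6%, 47.3%, 12.5% and 20.4% for Cxcr6. As a measure of free RNA, 48 barcodes with B cell markers, no Cd3 UMI and no UMI of 9 myeloid markers were used. Their median depths were 3261.5 to 7109 UMIs by pool, and they held 2 UMIs of Cxcr3 and 0 of the other 4 genes. By the limit of 3 counts, 0 UMIs allow 34.4 to 256.5 CPM by pool. Barcodes with free myeloid RNA were left out, so RNA from that source was not tested. Barcodes with monocyte markers and no Cd3 UMI, 29, 41, 119 and 94 by pool, held 16 UMIs of Cxcr3 and 1 UMI of Cxcr6 in all, at most 6.50 and 0.814 CPM in a pool.

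Those monocyte-marker barcodes held Ccr2 at 162.8, 263.9, 576.9 and 421.7 CPM and Cx3cr1 at 9.87, 37.0, 88.5 and 61.9 CPM, both higher in the control pools. Their median depth was 1522 and 1575 UMIs in the Runx1::Runx1t1 pools and 11552 and 11963 in the control pools. Since monocytes hold these mRNAs, the 4 monocyte markers (Csf1r, F13a1, Ms4a6c and Ly86) are given beside the group comparisons.

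Most Cd8+ T cells showed no receptor of the set at the thinned depth: 72.4%, 57.0%, 81.6% and 74.5% had 0 of the 5, against 56.6% to 59.3% of Cd4+, 58.2% to 61.8% of Foxp3+ and 59.4% to 64.2% of co-receptor-negative T cells in a pool. In no class and pool did more than 2.37% of cells have 3 or more. Within Cd8+ T cells, Ccr2 was found more often in cells that had a Cxcr3 UMI than in those without, 12.5% and 6.56% in replicate 1 and 9.72% and 4.13% in replicate 2 of the Runx1::Runx1t1 group, and 5.59% and 2.43%, and 7.66% and 3.11%, in the control pools. Cxcr6 was found in 13.5%, 25.7%, 11.6% and 14.96% of cells with Cxcr3 and in 7.96%, 28.4%, 4.32% and 6.39% of those without. Replicate 2 of the Runx1::Runx1t1 group was thus the pool where Cxcr6 was not more frequent among Cxcr3+ cells. These shares are descriptions within pools, since cells of a pool are not replicates.

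The comparison of the Runx1::Runx1t1 group with the control group addressed whether T cells of the marrow that carries the fusion differ in these receptors. In Cd8+ T cells, Ccr2 read 46.7 and 35.0 CPM in the Runx1::Runx1t1 pools and 20.6 and 23.3 CPM in the control pools, and Cxcr6 read 53.1 and 211.2 against 28.1 and 48.5 CPM. Neither gene's groups overlapped, yet 0 of the 5 receptors passed edgeR's test, where 0.120% of 13330 genes did (2857 genes had an unadjusted p under 0.05, and DESeq2 called 868 genes). The log2 difference was 0.84 for Ccr2 (SE 0.18, adjusted p = 0.105) and 1.69 for Cxcr6 (SE 0.62, adjusted p = 0.208). Cx3cr1 (0.69, SE 0.28, adjusted p = 0.234), Ccr4 (0.59, SE 0.76, adjusted p = 0.687) and Cxcr3 (-0.02, SE 0.16, adjusted p = 0.960) did not pass either.

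The values of Ccr2 and Cxcr6 moved in opposite directions when large clonotypes were taken out. Without the largest clonotype of each pool, a setting chosen after seeing the data, Ccr2 was 0.92 higher and passed (adjusted p = 0.0285), and Cxcr6 was 1.30 higher and did not (adjusted p = 0.150). With 1 cell per clonotype Ccr2 was 0.97 higher (adjusted p = 0.0105) and Cxcr6 0.40 higher (adjusted p = 0.460). Without replicate 2 of the Runx1::Runx1t1 group, Cxcr6 was 0.46 higher (adjusted p = 0.446) and Ccr2 1.08 higher (adjusted p = 0.00699), and without replicate 1 of that group Cxcr6 was 2.35 higher (adjusted p = 0.0053) and Ccr2 0.56 higher (adjusted p = 0.0199). Over all settings the adjusted p of Ccr2 ran from 0.000622 to 0.524 and that of Cxcr6 from 0.0053 to 0.638.

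Single Cd8+ T cells and cells without effector mRNAs showed the same order of the pools in Ccr2. Among Cd8+ T cells of clonotypes of 1 cell, a setting chosen after seeing the data, Ccr2 read 36.6 and 31.9 CPM in the Runx1::Runx1t1 pools and 16.9 and 17.9 CPM in the control pools, a log2 difference of 0.9995 (adjusted p = 0.00677, in a fit that called 657 genes), while that of Cxcr6 was 0.35 (adjusted p = 0.477). Among Cd8+ T cells with neither Klrg1, Gzmk nor Pdcd1 with Lag3, it read 30.5, 30.5, 13.9 and 15.8 CPM, again without overlap, which was not tested. Cxcr6 in the latter cells read 25.0, 44.9, 20.3 and 35.3 CPM and overlapped between the groups. All 4 monocyte markers were detected in the Cd8+ T cells of each pool, and their sum was 9.26 to 10.4 CPM in the Runx1::Runx1t1 pools and 21.7 to 31.4 CPM in the control pools. All 9 genes of a myeloid list that includes Lyz2 were detected too, at 55.0 to 65.4 and 183.4 to 320.9 CPM. The share of such RNA in the Ccr2 level of these cells was not tested.

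In Cd4+ T cells 0 of 5 receptors passed between the groups, where 3.04% of 11267 genes did (2259 genes had an unadjusted p under 0.05, and DESeq2 called 324). Log2 differences ran from -0.08 for Cxcr3 (SE 0.08, adjusted p = 0.629) to 0.79 for Cx3cr1 (SE 0.29, adjusted p = 0.190), with 0.10 for Cxcr6, 0.20 for Ccr2 and -0.06 for Ccr4. In Foxp3+ T cells 4 of the 5 had enough counts to be tested and 0 passed, where 0.117% of 9413 genes did (1046 genes had an unadjusted p under 0.05, and DESeq2 called 57). The lowest adjusted p there was that of Ccr4, whose log2 difference was -0.54 (SE 0.20, adjusted p = 0.364). The group difference in Cd8+ T cells minus that in Cd4+ T cells, tested itself, was 1.35 for Cxcr6 (SE 0.52, adjusted p = 0.551) and 0.62 for Ccr2 (SE 0.14, adjusted p = 0.256), with 0 of 5 past the threshold where 0.157% of 13361 genes were (1054 genes had an unadjusted p under 0.05, and DESeq2 called 51).

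In co-receptor-negative T cells Ccr2 rose in the Runx1::Runx1t1 group, from 61.8 and 63.9 to 88.8 and 85.2 CPM, a log2 difference of 0.40 (SE 0.07, adjusted p = 0.0198). It was the 1 receptor of 5 to pass, where 6.43% of 12800 genes did. Ccr4 read 6.32, 6.47, 2.33 and 3.61 CPM and did not overlap between the groups (log2 difference 1.03, SE 0.26, adjusted p = 0.0636). Nor did Cxcr6 (110.6, 178.9, 84.2 and 105.1 CPM) or Cxcr3 (136.2, 134.8, 141.8 and 147.8 CPM), the latter being higher in the control pools. The log2 differences were 0.53 for Cxcr6 (SE 0.20, adjusted p = 0.176), -0.17 for Cxcr3 (SE 0.07, adjusted p = 0.219) and -0.38 for Cx3cr1 (SE 0.48, adjusted p = 0.697). Among cells with paired TCR chains alone, the Ccr2 difference was 0.67 (adjusted p = 0.0038). It was 0.33 (adjusted p = 0.0631) without replicate 1 of the Runx1::Runx1t1 group, and 0.37 and 0.43 (adjusted p = 0.152 and 0.0723) without either control pool.

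Within that class, T cells with paired chains other than the NKT cells held 71.3, 72.2, 30.7 and 35.2 CPM of Ccr2, and Trdc cells 104.9, 130.5, 57.0 and 71.8 CPM, and in both the groups did not overlap. NKT cells (152.1, 131.8, 146.6 and 185.1 CPM) overlapped. The remaining cells, which were in none of these sets, held 81.7, 68.9, 107.9 and 81.3 CPM and also overlapped. Ccr2 was not the only receptor without overlap in the paired and Trdc cells. Cxcr6 (65.6, 121.5, 38.2 and 47.0 CPM) and Ccr4 (7.97, 7.78, 2.24 and 2.84 CPM) in the paired cells and Cxcr6 in Trdc cells were higher in both Runx1::Runx1t1 pools. Cxcr3 in Trdc cells was higher in both control pools. None of these differences was tested. The sum of the 4 monocyte markers, all detected in the class, was 19.4 and 23.0 CPM in the Runx1::Runx1t1 pools and 103.0 and 70.5 CPM in the control pools, and that of the 9 myeloid markers was 328.3, 326.5, 2102 and 958.6 CPM. The share of these traces in the receptor levels was not tested.

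**Figure D2:**
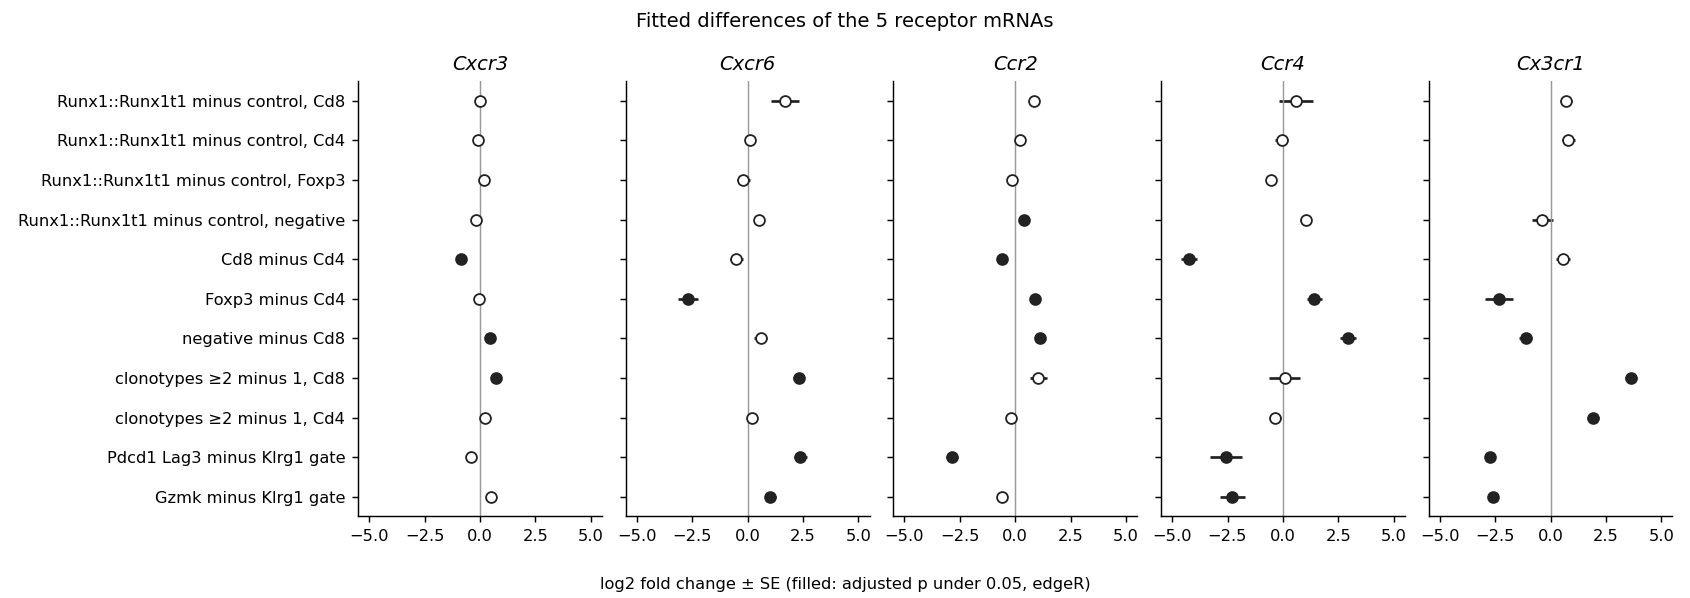
Log2 fold change of each receptor with its standard error in the edgeR comparisons of groups, classes, clone sizes and gates, filled points having an adjusted p under 0.05. The difference of the group effects in Cd8+ and Cd4+ T cells and the interaction of group and expansion are not drawn. Between the groups the one filled point is Ccr2 in co-receptor-negative T cells, while comparisons of classes, clone sizes and gates have several.

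Clonal expansion was read from the TCR: cells of 1 pool with the same nucleotide CDR3, the hypervariable stretch of the TCR, in both chains formed a clonotype, and those of 2 or more cells were called expanded. Expanded clonotypes held 1358 and 2457 Cd8+ T cells of the Runx1::Runx1t1 pools and 386 and 808 of the control pools. Cx3cr1 read 54.5, 17.3, 59.2 and 27.4 CPM in expanded and 2.40, 2.24, 2.97 and 2.07 CPM in single Cd8+ T cells. Cxcr6 read 175.6, 560.5, 115.1 and 128.2 CPM in expanded and 27.7, 49.5, 23.6 and 37.1 CPM in single cells. For both genes each expanded value lay above every value in single cells.

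Of the 5 receptors 3 rose with expansion in Cd8+ T cells, where 22.8% of 12740 genes passed. Cx3cr1 was 12.4-fold higher (log2 difference 3.63, SE 0.28, adjusted p = 0.00256) and Cxcr6 4.97-fold higher (2.31, SE 0.25, adjusted p = 0.00467). Cxcr3, at 161.6, 108.2, 180.9 and 220.6 CPM in expanded and 74.2, 87.1, 71.0 and 94.5 CPM in single cells, was 0.74 higher (SE 0.19, adjusted p = 0.0371). That last call was lost without replicate 1 of the Runx1::Runx1t1 group or without either control pool (adjusted p = 0.108 to 0.160) and with expansion counted from 5 cells (adjusted p = 0.0536).

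For Ccr2 1 pool departed from the others. That pool was replicate 2 of the Runx1::Runx1t1 group. Ccr2 read 89.8, 30.4, 80.8 and 61.1 CPM in expanded and 36.6, 31.9, 16.9 and 17.9 CPM in single cells. Its log2 difference was 1.04 (SE 0.38, adjusted p = 0.0920), and it was 1.49 without that pool (adjusted p = 0.00137) and 1.21 without the largest clonotype of each pool (adjusted p = 0.0151). Whether expansion acted differently in the groups was tested with an interaction term, which 0 of 5 receptors passed, where 0% of 12740 genes did with edgeR (2138 genes had an unadjusted p under 0.05, and DESeq2 called 188). That difference was -1.46 for Ccr2 (SE 0.45, adjusted p = 0.209), 0.98 for Cxcr6 (SE 0.28, adjusted p = 0.198) and -0.65 for Cxcr3 (SE 0.26, adjusted p = 0.289).

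Clone size gave more detail than the contrast of expanded with single cells. Clonotypes of 20 to 99 cells were absent from control replicate 1 among Cd8+ T cells, so 3 values are given for that size. In Cd8+ clonotypes of 2 to 4 cells, Cxcr3 read 200.6, 191.1, 171.8 and 207.0 CPM, at 20 to 99 cells 156.4, 117.8 and 258.9 CPM, and in those of 100 cells or more, found in the Runx1::Runx1t1 pools alone, it read 67.0 and 84.8 CPM, near the level of single cells. Ccr2 read 108.5, 94.6, 61.7 and 55.6 CPM at 2 to 4 cells, 83.4, 25.7 and 49.9 CPM at 20 to 99, and 20.2 and 14.2 CPM at 100 or more. Cxcr6 had its highest value of both Runx1::Runx1t1 pools at the largest size, 515.9 and 657.7 CPM, from 89.5, 223.5, 86.6 and 124.8 CPM at 2 to 4 cells and 137.0, 532.3 and 109.3 CPM at 20 to 99. Cx3cr1 read 33.7, 37.0, 43.3 and 19.3 CPM at 2 to 4 cells, 37.0, 46.1, 87.4 and 44.2 CPM at 5 to 19 cells, 105.0, 34.1 and 19.2 CPM at 20 to 99, and 33.9 and 2.74 CPM at 100 or more. The largest size rests on few clonotypes, 1 of them with 1106 cells.

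**Figure D3:**
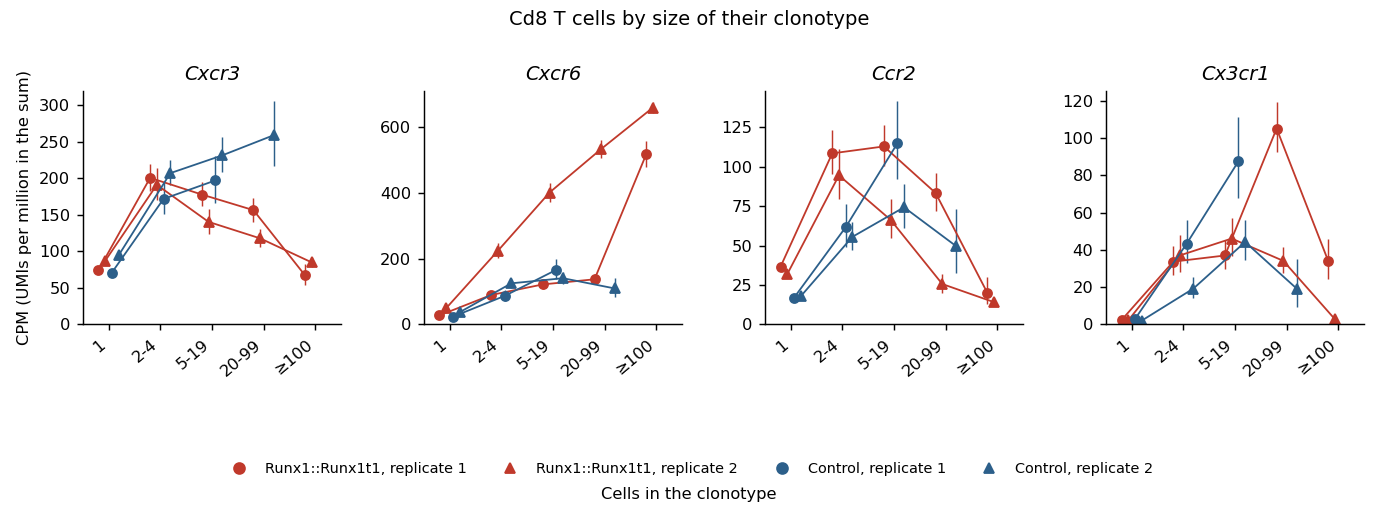
Level of the receptors (CPM) in Cd8+ T cells by the number of cells in their clonotype, 1 point per pool, with 95% exact Poisson intervals that cover counting error alone. Cxcr3, Ccr2 and Cx3cr1 are higher in clonotypes of 2 to 19 cells than in single cells, and Cxcr6 is highest in clonotypes of 100 cells or more, which exist in the Runx1::Runx1t1 pools alone.

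Expanded Cd4+ T cells differed from single ones in 1 of the 5 receptors, where 9.46% of 10569 genes passed. Cx3cr1 read 15.8, 10.8, 7.19 and 14.2 CPM in expanded and 3.58, 2.20, 3.43 and 2.98 CPM in single Cd4+ T cells, 3.76-fold higher (log2 difference 1.91, SE 0.28, adjusted p = 0.00412). The adjusted p was 0.0585 when replicate 1 of the Runx1::Runx1t1 group was left out. Log2 differences of the others were 0.22 for Cxcr3, 0.20 for Cxcr6, -0.19 for Ccr2 and -0.37 for Ccr4, with adjusted p from 0.173 to 0.609.

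Cd8+ T cells were also divided by mRNAs other than the receptors: Pdcd1 with Lag3, inhibitory receptors of stimulated T cells, then Klrg1, a receptor of terminal effector cells, then Gzmk, a granzyme of memory-like cells, and then cells with none of these. A cell needs UMIs to enter such a gate, so the gates select on depth as well. Cx3cr1 was concentrated in the Klrg1 gate, at 104.1, 96.2, 114.8 and 108.4 CPM, against 21.2, 11.2, 46.2 and 12.1 CPM in the Pdcd1 and Lag3 gate, 23.3, 12.4, 19.3 and 10.4 CPM in the Gzmk gate and 3.08, 1.68, 2.79 and 2.15 CPM in cells with none of these. The groups overlapped in the last 3 of these sets, and in the Klrg1 gate both control pools lay above both Runx1::Runx1t1 pools, a difference that was not tested.

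Cxcr6 had its highest level in the Pdcd1 and Lag3 gate, at 407.6, 613.9, 221.3 and 209.7 CPM, against 35.7, 95.5, 88.4 and 89.0 CPM in the Klrg1 gate. Within the gate the Runx1::Runx1t1 pools lay above the control pools, which was not tested. The gate held 410 and 1925 cells in the Runx1::Runx1t1 pools and 38 and 31 in the control pools. Ccr2 was the opposite, with 25.4, 13.3, 39.6 and 28.2 CPM in the Pdcd1 and Lag3 gate and 127.7, 161.3, 102.5 and 97.3 CPM in the Klrg1 gate. Cxcr3 read 132.2, 192.3, 117.6 and 145.5 CPM in the Klrg1 gate and 183.5, 159.8, 220.3 and 227.1 CPM in the Gzmk gate, and these overlapped.

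The Pdcd1 and Lag3 gate differed from the Klrg1 gate in 4 of the 5 receptors, where 16.1% of 10362 genes passed. Cxcr6 was 2.38 higher (SE 0.27, adjusted p = 4.71e-05), Ccr2 fell by 2.87 (SE 0.27, adjusted p = 9.39e-06) and Cx3cr1 fell by 2.73 (SE 0.23, adjusted p = 4.20e-06). Ccr4 fell by 2.57 (SE 0.71, adjusted p = 0.0270) from a level of at most 7.42 CPM, and its call was lost with DESeq2 (adjusted p = 0.0654) and without replicate 2 of the Runx1::Runx1t1 group (adjusted p = 0.292). The Gzmk gate differed from the Klrg1 gate in 3 of the 5, where 5.74% of genes passed. There Cx3cr1 fell by 2.60 (SE 0.18, adjusted p = 1.66e-06), Ccr4 fell by 2.29 (SE 0.57, adjusted p = 0.0349) and Cxcr6 was 1.03 higher (SE 0.26, adjusted p = 0.0309). The Cxcr6 call was lost with DESeq2 (adjusted p = 0.0686), with 1 cell per clonotype (0.51, adjusted p = 0.0689) and without any of 3 pools (adjusted p = 0.0558 to 0.134), and the Ccr4 call without replicate 2 of the Runx1::Runx1t1 group (adjusted p = 0.0631).

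**Figure D4:**
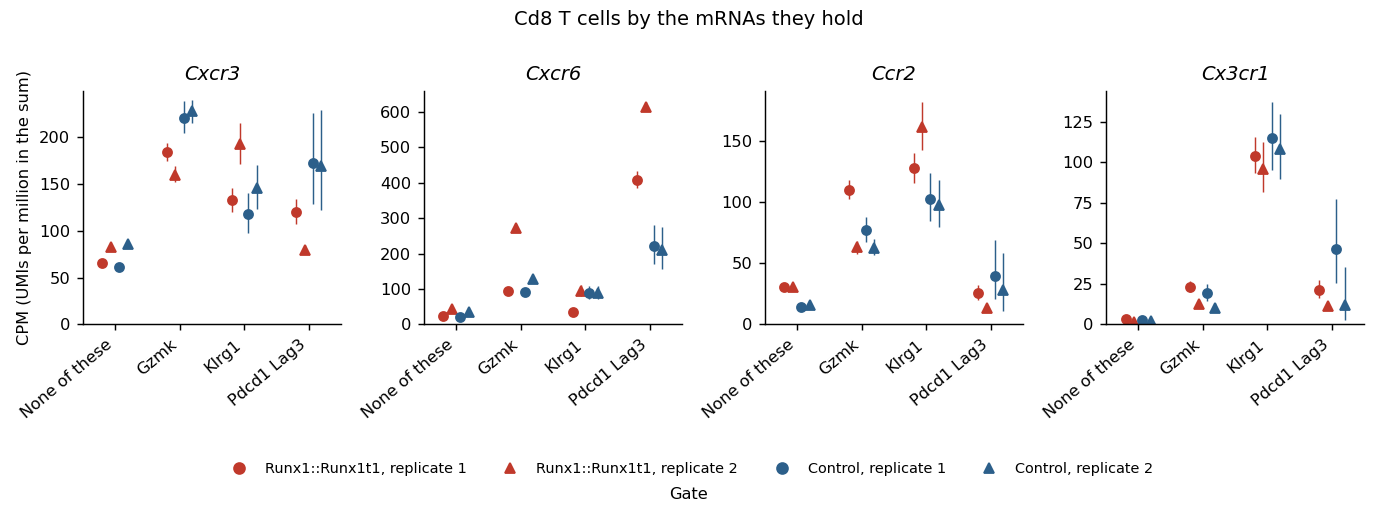
Level of 4 receptors (CPM) in Cd8+ T cells gated by Gzmk, Klrg1, or Pdcd1 with Lag3, and in those with none of these, 1 point per pool, with 95% exact Poisson intervals that cover counting error alone. Cx3cr1 peaks in the Klrg1 gate in every pool and Cxcr6 in the Pdcd1 and Lag3 gate, and in cells with none of these the Ccr2 points of the Runx1::Runx1t1 pools lie above those of the control pools.

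Single clonotypes showed how the receptors were divided among expanded cells. There were 58 clonotypes of 20 cells or more, 24 and 27 in the Runx1::Runx1t1 pools and 1 and 6 in the control pools, and Cd8+ T cells were the leading class in 33, Cd4+ in 23 and co-receptor-negative cells in 2. Of the 33, 16 had Pdcd1 and Lag3 UMIs in at least 50% of their cells, 4 and 12 by Runx1::Runx1t1 pool and 0 in the control pools. Cxcr6 had a median of 569.0 CPM (range 138.6 to 889.8) over these 16 and of 48.0 CPM (3.03 to 392.6) over the other 17. The medians of Ccr2 were 2.40 CPM (0 to 45.4) and 71.7 CPM (0 to 334.5), those of Cx3cr1 8.32 CPM (0 to 57.6) and 40.5 CPM (0 to 258.1), and those of Cxcr3 89.3 CPM (5.49 to 241.3) and 188.8 CPM (72.6 to 336.4). All 4 ranges overlapped.

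Over the 33 clonotypes, which share pools and differ in depth, Spearman's rho of the levels was -0.607 between Cxcr6 and Ccr2, -0.575 between Cxcr6 and Cx3cr1, -0.541 between Cxcr6 and Cxcr3, and 0.503 between Cxcr3 and Ccr2. Within the pools with most clonotypes, rho between Cxcr6 and Ccr2 was -0.552 (14 clonotypes of replicate 1) and -0.580 (15 of replicate 2 of the Runx1::Runx1t1 group). Within those pools it was -0.490 and -0.333 between Cxcr6 and Cx3cr1, -0.152 and -0.700 between Cxcr6 and Cxcr3, and 0.218 and 0.706 between Cxcr3 and Ccr2.

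The CDR3 sequences of 6 clonotypes are shown as examples of high Cxcr6 (A and B), high Cx3cr1 or Ccr2 (C and D) and a shared alpha chain (E and F), chosen after their values were seen. They were read from the deposited contigs, and the codons between the first 4 and the last 4 are in capitals, the stretch that the joining of the gene segments makes most variable. The first pair, A and B, had high Cxcr6 and little Ccr2, although 2 clonotypes of 63 and 57 cells had more Cxcr6, 857.0 and 889.8 CPM. A was the clonotype of 1106 cells in replicate 2 of the Runx1::Runx1t1 group, with 745.2 CPM of Cxcr6, 54.8 of Cxcr3, 2.61 of Ccr2 and 1.69 of Cx3cr1. B had 113 cells in replicate 1 of that group, with 694.7 CPM of Cxcr6, 5.49 of Cxcr3 and 30.2 of Cx3cr1.
Clonotype A alpha (TRAV6-6, TRAJ48): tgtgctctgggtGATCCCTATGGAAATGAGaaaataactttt
Clonotype A beta (TRBV1, TRBJ2-7): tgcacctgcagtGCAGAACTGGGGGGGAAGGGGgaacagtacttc
Clonotype B alpha (TRAV9D-3, TRAJ12): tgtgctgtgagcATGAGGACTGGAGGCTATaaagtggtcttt
Clonotype B beta (TRBV17, TRBJ2-5): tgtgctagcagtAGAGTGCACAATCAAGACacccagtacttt
C, of 22 cells in replicate 1 of the Runx1::Runx1t1 group, was the clonotype with most Cx3cr1 of the 33, at 258.1 CPM, with 201.6 CPM of Ccr2 and 8.07 of Cxcr6, the latter from 1 UMI. D, also of 22 cells in that pool, had the most Ccr2, 334.5 CPM, with 259.2 CPM of Cxcr3 and 8.36 of Cxcr6, again from 1 UMI.
Clonotype C alpha (TRAV16, TRAJ37): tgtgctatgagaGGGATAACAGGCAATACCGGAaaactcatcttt
Clonotype C beta (TRBV13-1, TRBJ2-7): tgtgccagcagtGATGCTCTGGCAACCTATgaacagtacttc
Clonotype D alpha (TRAV6-6, TRAJ30): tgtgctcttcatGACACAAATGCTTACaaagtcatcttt
Clonotype D beta (TRBV3, TRBJ2-1): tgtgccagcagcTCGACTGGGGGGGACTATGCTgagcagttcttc
E and F, of 75 and 28 cells in replicate 1 of the Runx1::Runx1t1 group, shared the nucleotide sequence of the alpha CDR3 and had different beta chains. Their levels of Cx3cr1 were 131.8 and 213.6 CPM those of Cxcr6 30.1 and 35.6 CPM, and those of Ccr2 71.7 and 7.12 CPM.
Clonotypes E and F alpha (TRAV14-1, TRAJ49): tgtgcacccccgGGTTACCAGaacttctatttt
Clonotype E beta (TRBJ2-1): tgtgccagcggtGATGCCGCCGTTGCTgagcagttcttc
Clonotype F beta (TRBV19, TRBJ1-2): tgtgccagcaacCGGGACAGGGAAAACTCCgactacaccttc

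The shares of Klrg1+ cells in these clonotypes were 0.271% in A, 0% in B, 86.4% in C, 13.6% in D, 49.3% in E and 53.6% in F. Large clonotypes did not always divide in this way. The clonotype of 172 cells in replicate 2 of the Runx1::Runx1t1 group, the next in size after A, had 304.2 CPM of Cxcr3, 192.7 of Cxcr6 and 112.8 of Ccr2. A clonotype of 21 cells in replicate 1 of that group had 321.6 CPM of Cxcr6, 222.7 of Cx3cr1 and 140.2 of Ccr2 together. In control replicate 2, a co-receptor-negative clonotype of 40 cells with Klrg1 in 67.5% of them had 250.5 CPM of Cx3cr1. Among the 23 Cd4+ clonotypes the ranges were 0 to 297.9 CPM for Cxcr3, 16.8 to 380.6 for Cxcr6, 0 to 143.1 for Ccr2 and 0 to 59.3 for Cx3cr1.

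**Figure D5:**
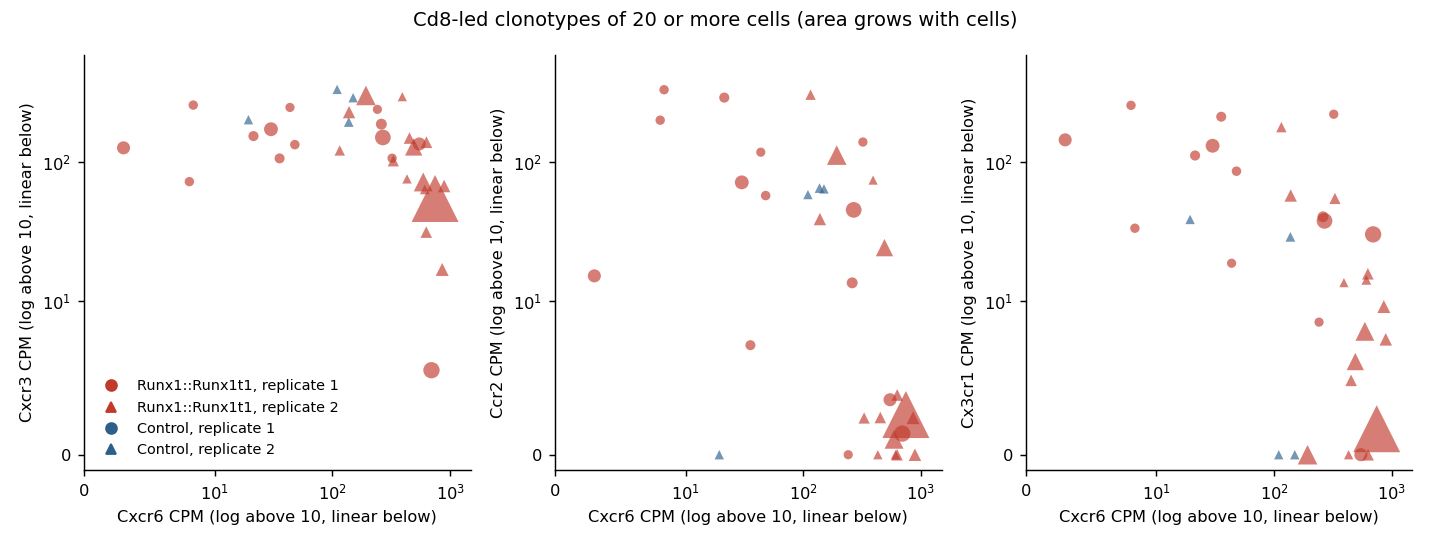
Cxcr6 against Cxcr3, Ccr2 and Cx3cr1 (CPM, axes linear near 0 and logarithmic above) in the clonotypes of 20 cells or more led by Cd8+ T cells. Each point is 1 clonotype with an area that grows with its cells, its color giving the group and its shape the replicate. Clonotypes with high Cxcr6 mostly have little Ccr2, and control replicate 1 has no such clonotype.

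The other genes of the pathway came from 5 lists: 18 other chemokine receptors, 11 ligands of the set (10 of them in the files), 4 chemokines made by T cells, 26 genes of receptor signaling and 9 transcription factors. Between the groups, 0 of 11 other receptors tested in Cd8+ T cells passed, with a median log2 difference of 0.27 against -0.01 over all genes. In the same cells 0 of 5 ligands (median 0.81), 0 of 4 T cell chemokines (median 1.46) and 0 of 26 signaling genes (median 0.07) passed, and 1 of 9 transcription factors did (median 0.26), Eomes, a factor of effector and memory Cd8+ T cells, at 1.15 (SE 0.08, adjusted p = 0.0475). In Cd4+ T cells 3 of 4 T cell chemokines rose (median 3), Ccl4 by 3.52, Ccl3 by 3.47 and Ccl5 by 2.53, all 3 of them chemokines of activated T cells. Of 10 other receptors 1 was higher and 1 lower (median -0.10). The lower one was Ccr9, by 2.01 (SE 0.39, adjusted p = 0.0422). Of the other lists in Cd4+ T cells, 1 of 2 ligands, 2 of 26 signaling genes and 2 of 9 transcription factors were higher, and 1 gene of each of the last 2 lists was lower.

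In Foxp3+ T cells 0 of 10 other receptors, 0 of 4 T cell chemokines, 0 of 23 signaling genes and 0 of 7 transcription factors passed between the groups, and the 1 ligand tested, Cxcl10, was 1.08 higher (SE 0.14, adjusted p = 0.0340). In co-receptor-negative T cells 3 of 12 other receptors rose in the Runx1::Runx1t1 group, Ccr3 by 2.65, Ccr8 by 2.19 and Ccr7 by 1.38 (median 0.20). Among the ligands 2 of 6 passed there (median 1.70), Cxcl10, a ligand of Cxcr3, which rose by 1.38 (SE 0.16, adjusted p = 0.00553), and Ccl8. The fitted difference of Ccl8 was 7.98 (adjusted p = 0.0171), with 8.98 in Cd8+ (adjusted p = 0.0933) and 6.75 in Cd4+ T cells (adjusted p = 0.0455). Fitted values of this size depend on the prior count and are no measured fold, and the share of free RNA in them was not tested. Xcl1 was lower by 0.55 among the 4 T cell chemokines, 2 of 26 signaling genes rose (Rgs16 and Rgs1, which shorten G protein signals), and of 9 transcription factors Zbtb16 and Gata3 rose and Tbx21 fell.

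Between the classes, 2 of 11 other receptors were higher and 5 lower in Cd8+ than in Cd4+ T cells (median -0.72), with Ccr7 higher by 1.37 and Ccr8 lower by 3.75. In Foxp3+ against other Cd4+ T cells 5 of 11 were higher and 1 lower (median 0.71), with Ccr8 higher by 2.67, and all 4 T cell chemokines were lower (median -3.03). Against Cd8+ T cells, co-receptor-negative T cells had 7 of 11 other receptors higher and 3 lower (median 1.15), with Ccr6 higher by 3.67 (adjusted p = 1.00e-06) and Ccr7 lower by 1.99.

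With expansion in Cd8+ T cells, Ccr7 fell by 4.33 (SE 0.58, adjusted p = 0.00711) and Ccr9 by 3.64, and Ccr3 rose by 1.94. In all, 2 of 10 other receptors rose and 2 fell (median 0.23). Of the 4 T cell chemokines 3 rose, Ccl3, Ccl4 and Ccl5 (median 2.47), 6 of 26 signaling genes rose and 3 fell, and 5 of 9 transcription factors rose and 2 fell. Zeb2, a factor of terminal effector cells, rose by 2.71 (SE 0.30, adjusted p = 0.00478), and Klf2 and Tcf7, factors of naive and central memory cells, fell by 1.94 and 1.55. With expansion in Cd4+ T cells 2 of 9 other receptors rose, among them Cxcr5 by 1.25, and Ccr7 and Ccr6 fell by 3.07 and 1.40. In the Pdcd1 and Lag3 gate against the Klrg1 gate 1 of 9 other receptors was higher and 4 lower (median -1.05), with Ccr3 lower by 4.43, and Zeb2 was lower by 2.54 (SE 0.16, adjusted p = 5.91e-07). In the Gzmk gate against the Klrg1 gate 2 of 9 were lower, Ccr8 by 3.14 and Ccr3 by 2.18, and Zeb2 was lower by 2.46. These list counts are descriptions beside the medians over all genes, which lay between -0.03 and 0.01 in every comparison.

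The genes whose levels over the 16 sums of 4 classes in 4 pools were most like each receptor's were found by Pearson's r over 12543 genes, as a description with no p, since the sums share pools and classes. For Cxcr6 they were Fasl (r = 0.915), the Fas ligand of cytotoxic cells, Ifng (0.899), the gene of interferon gamma, and Gm36723 (0.890). For Cxcr3 they were Hsbp1 (0.943), Cd82 (0.928) and Plekha8 (0.900), for Ccr2 Lmna (0.922), Muc1 (0.914) and Naprt (0.910), and for Ccr4 Il9r (0.972), the receptor of interleukin 9, Prr13 (0.969) and H1f0 (0.962). The nearest to Cx3cr1 were transcripts without a given function, namely Gm47761 (0.952), 4930570N18Rik (0.941) and 1700026D11Rik (0.933).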

How the data were processed

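With Cell Ranger 6.1.2 the authors mapped reads to mouse build GRCm38. The deposited files hold, for 4 pools, raw UMI counts per gene and called barcode, and TCR contigs with their UMI counts. Of these the pools held 90958101 to 102883449 UMIs. The annotation release is not given in the sources used here.

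Barcodes with under 200 genes or over 15% mitochondrial UMIs were removed. Doublets were scored with Scrublet (scanpy 1.11.5) at an expected rate of 0.05. Its automatic threshold marked 4.22% of 1 pool and under 0.5% of the other 3, in which the 5% of highest scores were removed instead. T cells were classed by UMIs of Cd3d, Cd3e or Cd3g, Cd4, Cd8a or Cd8b1, and Foxp3, and gates needed 1 UMI of each gene. A clonotype was the same nucleotide CDR3 in the TRA and TRB contig with most UMIs, within a pool.

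Counts were summed per pool and class, clone size or gate, leaving out sums of under 20 cells, and tested over all genes with edgeR 4.0.16 (TMM, filterByExpr, quasi-likelihood test) in R 4.3.3, with Benjamini-Hochberg adjustment at 0.05. Groups were compared without covariates, and classes, sizes and gates with the pool as a block. Standard errors were the log2 fold change divided by the root of F. In the group comparisons the P values measure the spread between pools of 2 mice. In the fits with the pool as a block they measure how differences within a pool vary across pools. With 2 pools against 2, an exact permutation test cannot go below 0.333, so none is given. Intervals and the limit of 3 counts cover counting error. Scripts were tested on simulated data. DESeq2 1.42.0 was an alternative, beside those in the closing section. Promoters came from RefSeq (GRCm38.p6).

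The text names the 5 receptors always and, from each list, up to 3 genes past the threshold with the largest log2 fold changes, with the 3 genes most like each receptor. Ccr7 and Cxcr5 fell outside this rule in some comparisons and were chosen after their values were seen. Some genes within the rule, and 1 further gate of Cd8+ T cells and its alternative, are not reported here. The receptors and lists were chosen with earlier results of these data known.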

Additional observations from a re-analysis of the deposited data

Results flagged for a closer look

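T cells with UMIs of both Cd4 and Cd8, left out of every class, held Cxcr3, Cxcr6 and Cx3cr1 above the level of the same cells in the control pools. In the Runx1::Runx1t1 pools they averaged 157 CPM of Cxcr3, with 151.1 and 162.8 CPM in the pools, and the control pools read 110.5 and 125.6 CPM. The average of Cxcr6 was 106.3 CPM, from 76.3 and 136.2 CPM, against 50.7 and 61.9 CPM in the control pools. Cx3cr1 averaged 6.88 CPM, from 9.02 and 4.74 CPM, against 4.27 and 2.23 CPM. These cells numbered 591 and 750 in the Runx1::Runx1t1 pools and 202 and 207 in the control pools. These 3 genes are given because both Runx1::Runx1t1 pools lay above both control pools, so the lack of overlap is the rule of choice and no result. Genes lower in the Runx1::Runx1t1 pools were not looked for by this rule. The share of all genes that meet it was not computed, and the differences were not tested. Ccr2, at 66.0 and 49.95 CPM against 43.8 and 62.5 CPM, and Ccr4, at 13.2 and 9.90 CPM against 1.07 and 11.2 CPM, overlapped between the groups. Barcodes holding 2 cells were not told apart from single cells with both co-receptors.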

How the results depend on the processing

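Over the values of single receptors under all alternatives, 615 kept their side of the threshold, 52 passed where the reported value did not, and 18 no longer passed. Among the 615 were 40 values that changed sign and passed in neither fit. Of the values that passed in either fit, 0 changed sign. The counts of genes past the threshold moved more, and the cause was not tested. For the group difference in Cd8+ T cells (16 genes) the count was 868 with DESeq2, 864 without the filter on low counts, 576 with 1 cell per clonotype, 657 with clonotypes of 1 cell, 524 without the largest clonotype of each pool, 8 with 2 UMIs for a gate and 7 with paired chains, and 3 to 1616 without each pool in turn. In Cd4+ T cells (342) it was 35 with 1 cell per clonotype, 795 without the filter, 169 with paired chains and 146 without the largest clonotypes, and 323 to 866 without each pool. In Foxp3+ T cells (11) it was 57 with DESeq2, 4 with 2 UMIs, 56 with doublets kept, 118 with paired chains, 0 without the filter by edgeR, and 86 to 467 without each pool. In co-receptor-negative T cells (823) it was 1236 with paired chains and 232 to 1298 without each pool. For the difference of the group effects in Cd8+ and Cd4+ T cells (21) it was 51 with DESeq2, 57 with 1 cell per clonotype, 293 without the filter, 10 with paired chains, 69 without the largest clonotypes, and 0 to 595 without each pool. For the interaction of group and expansion (0 with edgeR, 2138 genes at an unadjusted p under 0.05) it was 188 with DESeq2, 622 without the filter, 263 without the largest clonotypes, and 0 to 2728 without each pool. For the Pdcd1 and Lag3 gate (1670) it was 462 with 1 cell per clonotype and 596 to 1671 without each pool. For the Gzmk gate (595) it was 308 with 1 cell per clonotype, 1095 with 2 UMIs, 1104 without the filter, and 161 to 459 without each pool. Leaving out each pool gave 2892 to 4203 genes for Cd8+ against Cd4+ T cells (4472), 1556 to 2396 for Foxp3+ against Cd4+ (2882), 2109 to 3571 for co-receptor-negative against Cd8+ (3641), 182 to 2448 for expansion in Cd8+ (2901) and 374 to 1018 in Cd4+ T cells (1000).

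Replicate numbers were shared between the groups without a stated litter or day, so the numbers were taken as names. Deviations of same-numbered pools correlated at 0.258 in Cd8+, 0.0845 in Cd4+, -0.000218 in Foxp3+ and 0.278 in co-receptor-negative T cells. Whether a shared litter or day lay behind these values was not tested. With the replicate block the counts were 939, 415, 115 and 1767. In that fit Cxcr6 (1.48, adjusted p = 0.0289) and Ccr2 (0.82, adjusted p = 0.0466) passed in Cd8+ T cells, and Cxcr6 (0.51, adjusted p = 0.00299) and Ccr4 (1.07, adjusted p = 0.0138) in co-receptor-negative T cells. Depth limits Ccr4 in Cd8+ T cells and Cx3cr1 in Foxp3+ T cells, where 12 UMIs were counted in all.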
